A study of Mus musculus with 9 samples.

Results

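Parathyroid hormone (PTH) was compared directly with its relative, parathyroid hormone-related protein (PTHrP), on the 6 treated arrays of a series of 9 Affymetrix mouse arrays: 3 arrays after PTH against 3 after PTHrP, with the 3 control arrays kept out of the comparison. The members were all 18193 genes that the arrays measured through a probe set with 1 gene symbol. Each gene was taken at its brightest probe set by the mean over all 9 arrays, controls included. The question was which genes could be shown to lie at an equivalent level with either peptide and which stayed undecided. All 9 samples were primary white adipocytes, fat cells differentiated in culture from the precursor-rich stromal-vascular cells of the inguinal depot of C57BL6 mice, which were male and aged 30 to 35 days. Every group, the controls included, had been differentiated with dexamethasone, insulin, isobutylmethylxanthine (an inhibitor of the enzymes that break down cAMP) and rosiglitazone, and had been in medium without these agents from day 6. On day 8 the PTH group received PTH(1-34) and the PTHrP group PTHrP(1-34), the amino-terminal fragments of both peptides, each at 100 ng/ml for 4 h. The sources used here do not say what the controls received. The 2 peptides were thus matched in dose by mass and in time, at 1 dose and 1 time. The replicates are called biological, with no statement of separate mice or cultures, and the p-values therefore reflect the spread among these samples alone, which may be technical.

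PTH and PTHrP act on the same receptor, the PTH 1 receptor encoded by Pth1r, which couples mainly to the stimulatory G protein. The receptor thereby raises cAMP and activates protein kinase A, and it can also signal through phospholipase C. The peptides resemble each other at their amino-terminal ends and diverge further along the chain. PTH is a hormone of the parathyroid glands that controls blood calcium, whereas PTHrP is made in many tissues and acts mostly near where it is released. In fat cells, signalling through this receptor is known for raising thermogenic genes and lipolysis.

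No gene was shown to differ between PTH and PTHrP with 3 arrays against 3. Of 18193 genes, 0 (0%) reached an adjusted p below 0.05 in limma, and 805 (4.42%) had an unadjusted p below 0.05. Since a p that misses the threshold does not show that 2 values are alike, likeness was tested separately. A gene was called equivalent when 2 one-sided limma tests placed its PTH-to-PTHrP ratio within 1.5-fold, a log2 difference between -0.58 and 0.58, at an adjusted p below 0.05. Genes with a mean signal below 28.9, the 40th percentile of the probe sets, were set aside as dim (5373 genes, 29.5%) and could not be called. Of all genes 12511 (68.8%) were equivalent, which is 97.6% of the 12820 genes above the dim level. The remaining 309 (2.41% of those above the dim level) were undecided, neither shown to differ nor shown to be alike. The 95% interval of the difference reached no further than a 25% rise, or the matching fall, for 10083 of the 12820 genes, and the median of its farther end was 1.16-fold. The farther end stayed below 1.5-fold for 12328 of the 12511 equivalent genes, so the intervals of the other equivalent genes crossed the margin. Log2 values are of the signal with 16 added, so folds are understated at low signal. The undecided count depended on that constant, at 1047 genes with 1 added and 46 with 64 added.

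The equivalence calls are statements about a set of genes rather than about each gene alone. With the adjustment of Holm, which guards every single call and was chosen after seeing the data, 0 genes were equivalent, against 12511 with that of Benjamini and Hochberg. By the latter 12794 genes were equivalent within 2-fold, and 10430 within a margin of a 25% rise or the matching fall.

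The genes that respond to the peptides carry most of the question. Responders were the genes whose mean over both peptides differed from control (limma, all 9 arrays, adjusted p below 0.05), a contrast whose estimate is orthogonal to the difference between the peptides. Both tests use the spread of the treated arrays, so this filter favours genes of small spread. The median SE of the difference was 0.0576 for responders and 0.0641 for genes above the dim level. Responders numbered 1529 (8.4% of genes), of which 698 (3.84%) were higher and 831 (4.57%) lower than in controls. Taken singly against the same 3 controls, PTH changed 1109 genes (6.1%) and PTHrP 1013 (5.57%). Of the 1529 responders 1435 were equivalent, 62 were dim, and 32 (2.18% of the 1467 above the dim level) were undecided, a share near that of all genes. The other 277 undecided genes were no responders. Their median signal over the treated arrays was 47.3, against 339 for all genes above the dim level. The number of equivalent responders fell to 810 without control replicate 2, 915 without control replicate 3 and 949 without PTH replicate 3. Had only 1 peptide acted on a gene, the difference between peptides would be 2 times the mean response, so the margin of 0.58 cannot separate this case for responses below 0.29 on the log2 scale. Such responders numbered 625, of which 612 were equivalent and 13 dim. Of the other 904, 823 were equivalent, 32 undecided and 49 dim.

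Among the responders of at least 1.5-fold, every undecided gene was one that fell. Of 109 that rose, 106 were equivalent, 0 were undecided and 3 were dim. Of 122 that fell, 88 were equivalent, 30 were undecided and 4 were dim. The undecided made up 25.4% of the falling genes above the dim level, against 2.41% of all genes above it. The median of the farther end of the 95% interval was 1.16-fold for the rising and 1.26-fold for the falling genes. Of the 1298 responders below 1.5-fold, 2 were undecided, Sox18 and Myct1.

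**Figure D1:**
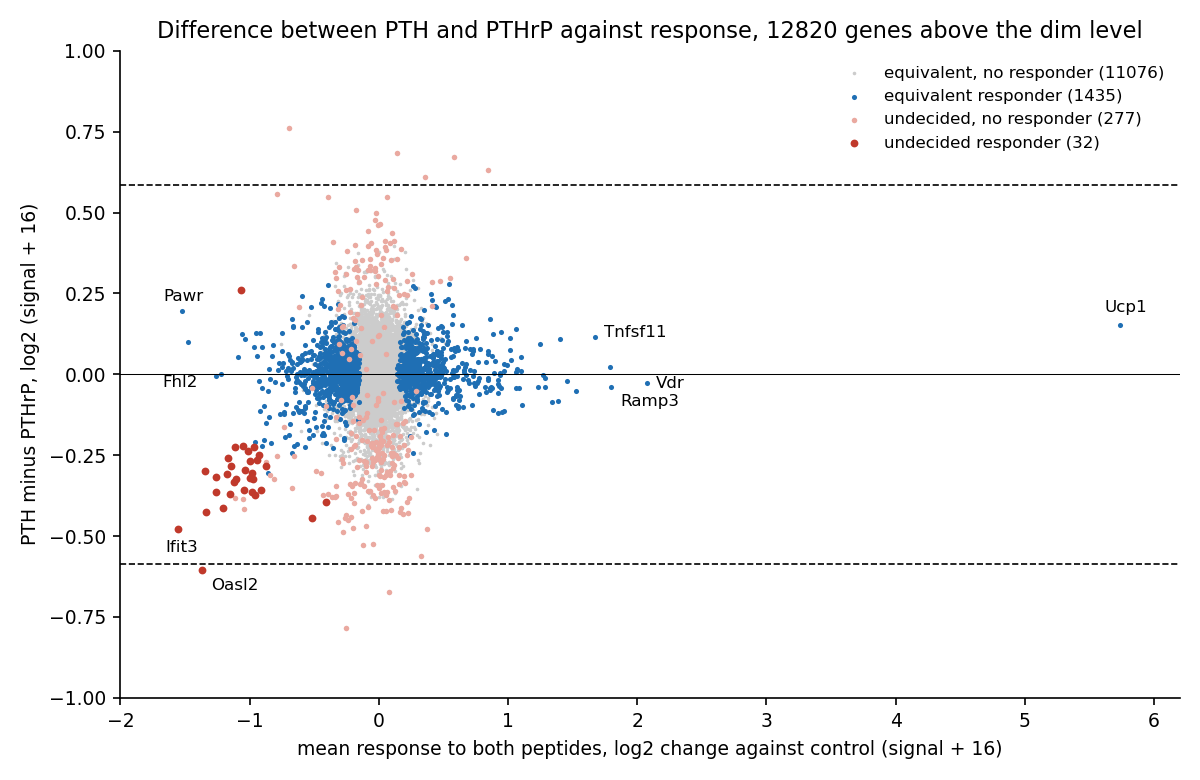
Each point is 1 of the 12820 genes above the dim level, with the mean log2 response to both peptides against control on the x axis and the log2 difference between PTH and PTHrP on the y axis. Dashed lines mark 1.5-fold; the 32 undecided responders all have responses below 0, and 31 of them lie below the line of no difference, while Ucp1, at a response of 5.74, lies at 0.15.

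The arrays were alike in overall signal, with medians between 48.2 and 52.6. The adipocyte markers were high in all of them and 6 of 6 measured were equivalent, among them Adipoq, the adiponectin gene, at 13500.0, 14819 and 13741 with PTH and 13370.0, 13687 and 12967 with PTHrP. PTHrP replicate 3 stood apart from the other treated arrays, at -14.6 on their first principal component (38.6% of the variance) against -3.41 to 7.91. As a sign of RNA quality, the 3'/5' signal ratio of the array's actin controls was 1.61 ± 0.0312 (SD, n = 3) with PTH and 1.56 ± 0.0457 (n = 3) with PTHrP (exact two-sided permutation p = 0.3). That of Gapdh was 0.983 and 0.960 (exact permutation p = 0.1, the smallest that 20 splits allow). In controls, on which the responder calls rest, the actin ratio was 1.47 ± 0.0324 (SD, n = 3). Every control, at 1.45 to 1.51, lay below every treated array, at 1.52 to 1.65. The part of RNA quality in the responses was not tested. In bulk cultures, fewer cells of a type and less RNA per cell cannot be told apart.

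The pathway lists are read against all genes, of which 97.6% above the dim level were equivalent and 8.4% were responders (3.84% higher, 4.57% lower). In every list but that of the interferon genes the equivalent share of the members above the dim level was 96.3% to 100%, near that of all genes, so these counts say nothing particular about a list and the members' own values carry the comparison.

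Pth1r, the shared receptor, fell with the peptides. It was at 224, 239 and 279 in the 3 PTH arrays and at 231, 253 and 250.4 in the 3 PTHrP arrays, against 332, 344 and 333 in controls. The treated groups overlapped and both lay below every control. It fell by 0.43 on the log2 scale (adjusted p = 0.00685, limma), and the difference between peptides was 0.01 (95% interval -0.21 to 0.23). Ramp3, which encodes a single-pass partner protein of G-protein-coupled receptors, was at 144, 167 and 150.2 with PTH and 144, 170.0 and 161 with PTHrP, against 43.8, 35.0 and 23.4 in controls. Its difference of -0.04 (interval -0.23 to 0.16) stood beside a rise of 1.80. Arrb1, the gene of a beta-arrestin that binds active receptors, rose by 0.64, and Rgs3, a gene of a protein that shortens G protein signals, had a response of -1.09. Their differences were 0.04 (-0.21 to 0.28) and 0.05 (-0.09 to 0.20). Of 22 genes of the receptor and its partners 9 were responders, 2 higher and 7 lower, against 8.4% of all genes, and 21 were equivalent. Pth2r, the other receptor of the family, was dim at a signal of at most 10.5 in the treated arrays, Pth was dim, and Pthlh, which encodes PTHrP, was not among the measured genes.

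Of 26 measured genes of cAMP and protein kinase A 9 were responders (8.4% of all genes), 7 higher and 2 lower. The list held 25 equivalent genes, and Pde3a was dim. Pde4d, a phosphodiesterase that degrades cAMP and is itself induced by it, was at 799.5, 708 and 724 with PTH and 761, 747 and 704 with PTHrP, against 419, 343 and 353 in controls. Both treated groups lay above the controls and overlapped each other, with a difference of 0.01 (-0.15 to 0.17). Averaged over its probe sets the difference was 0.13, still within the margin. Pde4b, a relative of Pde4d, rose by 0.78 with a difference of -0.01 (-0.16 to 0.13). The adenylyl cyclase gene Adcy3 rose by 0.59 with a difference of 0.08 (-0.06 to 0.22).

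Among 22 measured target genes of cAMP 6 were responders, 4 higher and 2 lower (3.84% and 4.57% of all genes). Fosb was dim and the other 21 were equivalent, as were 97.6% of all genes above the dim level. Crem, a transcription factor gene induced by cAMP, was at 387, 401 and 404 with PTH and at 445, 409.5 and 367 with PTHrP, against 201, 215 and 196 in controls. The PTHrP arrays spanned those of PTH, and the difference was -0.03 (-0.22 to 0.16), or 0.15 averaged over its probe sets. Nr4a3, an orphan nuclear receptor, rose by 0.92 with a difference of -0.02 (-0.32 to 0.29), and Gem, a small GTPase, rose by 0.97 with a difference of -0.11 (-0.35 to 0.12).

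Of 15 measured genes of vitamin D and bone signals 3 were responders, all higher (3.84% of all genes), namely Vdr, Tnfsf11 and the Wnt ligand gene Wnt5a. Vdr, the vitamin D receptor, was at 1253, 1225 and 1188 with PTH and 1304, 1243 and 1189 with PTHrP, against 316, 261 and 269 in controls. The groups overlapped, and the difference of -0.03 (-0.16 to 0.10) allowed at most 1.12-fold beside a rise of 2.07. Tnfsf11, which encodes RANKL, the cytokine that drives osteoclast formation, was at 231, 278 and 268 with PTH and 287, 226 and 204 with PTHrP, against 69.8, 61.7 and 68.9. PTHrP replicate 1 was the highest of the 6 and PTHrP replicates 2 and 3 the lowest, so the interval of -0.21 to 0.44 about a difference of 0.12 is wide. Wnt5a rose by 0.32 with a difference of 0.02 (-0.09 to 0.13). Of the list 10 genes were equivalent, Tnfrsf11a, Tnfrsf11b and Dkk1 among them without being responders, and 5 were dim, namely Cyp24a1, Cyp27b1, Sost, Bmp2 and Wnt10b.

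Of 23 measured thermogenic genes 6 were responders, all higher (3.84% of all genes), and Ucp1 had the largest response. Ucp1, whose protein uncouples mitochondria to make heat in brown and beige fat, was at 1520.3, 1789 and 2133 with PTH and at 1684, 1457 and 1716 with PTHrP, against 24.0, 11.8 and 14.2 in controls. The means were 1814 ± 307 (SD, n = 3) and 1619 ± 141 (n = 3). PTH replicate 3 was the highest array and PTHrP replicate 2 the lowest of the treated ones, and the groups overlapped. The difference was 0.15 (-0.18 to 0.48, at most 1.4-fold), between 0.03 without PTH replicate 3 and 0.27 without PTH replicate 1, beside a response of 5.74. Dio2, which activates thyroid hormone, was at 84.5, 82.5 and 90.8 with PTH and 84.2, 87.4 and 86.4 with PTHrP, against 42.7, 34.3 and 34.8 in controls. Its difference was 0.00 (-0.12 to 0.12), and its 3 PTHrP arrays lay within the range of the PTH arrays. Otop1, a proton channel gene, rose by 0.70 with a difference of -0.03 (-0.19 to 0.13). Ppargc1a, the coactivator of mitochondrial genes, was no responder (mean change 0.15, adjusted p = 0.207, limma) and was equivalent between peptides (0.02, -0.14 to 0.18). Of the list 19 genes were equivalent and 4 dim, so every member above the dim level was equivalent, against 97.6% of all genes above it.

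**Figure D2:**
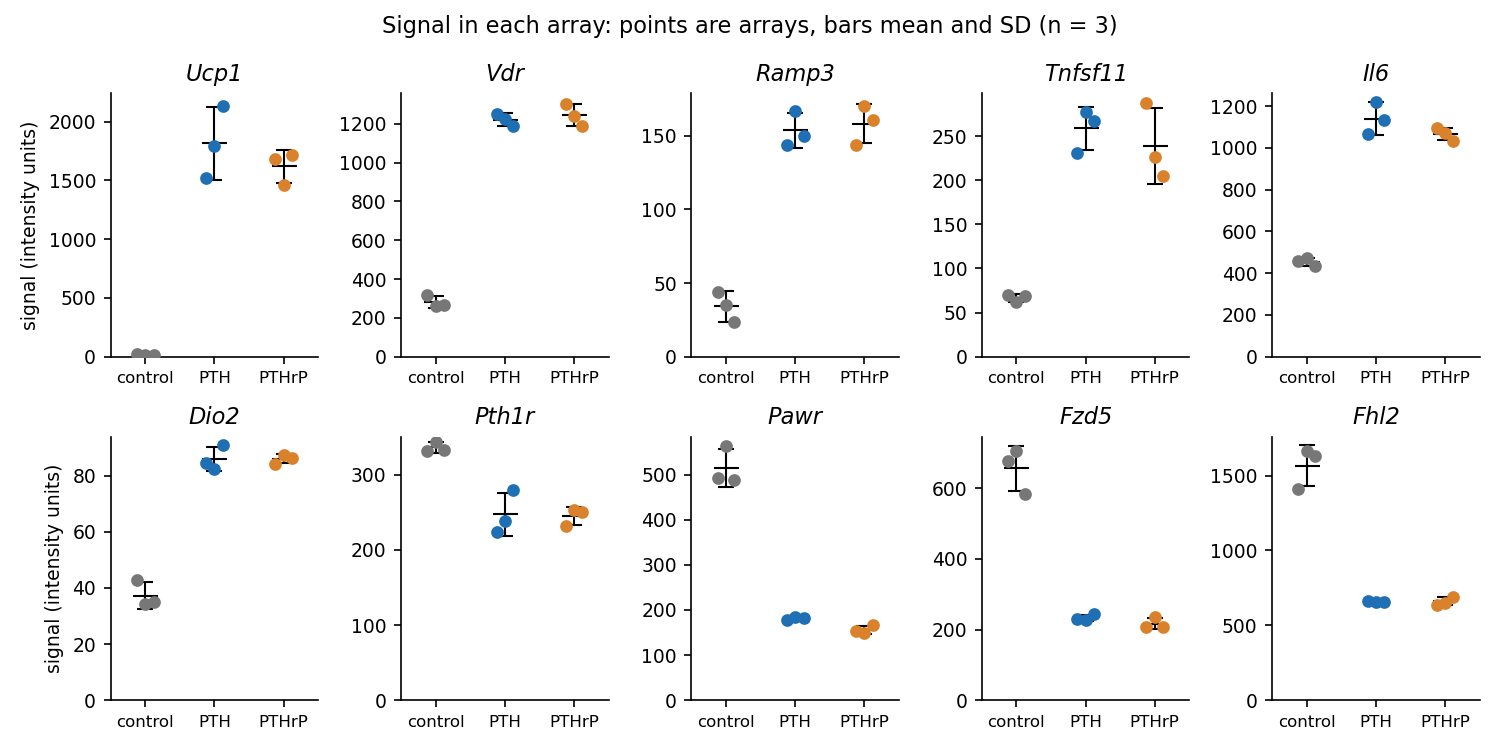
Signal of 10 genes in each of the 9 arrays, on linear axes that start at 0, with the mean and SD of each group of 3 as bars. For Ucp1, Vdr, Ramp3, Tnfsf11, Il6, Dio2, Pth1r and Fhl2 the PTH and PTHrP arrays overlap and lie apart from the controls; for Pawr the 3 PTH arrays, from 178 to 185, lie above the 3 PTHrP arrays, from 149 to 166.

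Of 13 measured genes of lipolysis and lipid droplets 5 were responders, all higher (3.84% of all genes), and 13 were equivalent, near the 97.6% of all genes above the dim level. Plin5, a lipid droplet protein that links droplets to mitochondria, was at 473, 547 and 531 with PTH and 468, 413 and 464 with PTHrP, against 427, 353 and 349. All 3 PTH arrays lay above the 3 PTHrP arrays, by 0.20 on the log2 scale (unadjusted p = 0.0464, adjusted p = 0.992, limma) beside a response of 0.35. Dgat1, the enzyme of the last step of triglyceride synthesis, rose by 0.61 with a difference of 0.02 (-0.10 to 0.15). Pck1, which makes glycerol precursors from pyruvate in fat, rose by 0.50 with a difference of 0.04 (-0.08 to 0.16). Cpt1a, which admits fatty acids to mitochondria, rose by 0.48 with a difference of 0.00 (-0.13 to 0.12). Of 27 measured genes of fat and cholesterol synthesis 13 were responders, 4 higher and 9 lower (3.84% and 4.57% of all genes), and 26 were equivalent. Of 19 genes of fatty acid oxidation and respiration 3 were responders (8.4% of all genes), 2 higher and 1 lower, and 19 were equivalent.

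Acacb, the mitochondrial acetyl-CoA carboxylase whose product restrains fatty acid oxidation, was the exception among the lipid genes. It was at 277, 263 and 289.8 with PTH and 161, 233 and 227 with PTHrP, against 330.4, 285 and 311 in controls. All 3 PTH arrays lay above all 3 PTHrP arrays. The difference of 0.41 (0.07 to 0.75) had an adjusted p of 0.992 (limma) and reached 1.68-fold at its far end, so Acacb stayed undecided; it was no responder (adjusted p = 0.0962, limma).

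Of 20 measured cytokine and chemokine genes 7 were responders that rose and 4 responders that fell (3.84% and 4.57% of all genes). The 15 above the dim level were equivalent, as were 97.6% of all such genes, and 5 were dim. Il6, the gene of interleukin 6, was at 1066, 1221 and 1133 with PTH and 1095, 1071 and 1035 with PTHrP, against 456, 473 and 432 in controls. The groups overlapped, with a difference of 0.09 (-0.06 to 0.25). The neutrophil chemokine gene Cxcl1 rose by 1.40 with a difference of 0.11 (-0.08 to 0.30), and Il33, the gene of an alarm cytokine, rose by 1.11 with a difference of -0.10 (-0.34 to 0.14). Apln, which encodes the adipocyte peptide apelin, rose by 0.92 with a difference of -0.12 (-0.31 to 0.07).

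The equivalent genes that fell came from several functions. Fhl2, a LIM-domain cofactor of transcription, was at 662, 658 and 658 with PTH and 639, 649.9 and 691 with PTHrP, against 1408, 1663 and 1629 in controls. Its difference was 0.00 (-0.12 to 0.12), the PTHrP arrays spanning those of PTH. Fzd5, a Wnt receptor, had a response of -1.48 and a difference of 0.10 (-0.06 to 0.26). Ccn2, a matrix-associated growth factor, was at 2770.5, 2708 and 2887 with PTH and 2433, 2559 and 2664 with PTHrP, against 5057, 5415 and 5061. Every PTH array of Ccn2 lay above every PTHrP array, by 0.13 (-0.01 to 0.26, adjusted p = 0.992, limma), within the margin. Of 21 measured matrix and CCN genes 7 were responders, all lower (4.57% of all genes). Mmp13 was dim and the other 20 were equivalent, again near the share of all genes above the dim level, 97.6%.

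Pawr, a pro-apoptotic factor, fell most of the equivalent genes named here and had the PTH arrays apart from the PTHrP arrays. It was at 178, 185 and 182 with PTH and 154, 149 and 166 with PTHrP, against 492, 563 and 488 in controls. The difference was 0.20 (0.07 to 0.33), with an unadjusted p of 0.0102 and an adjusted p of 0.992 (limma), so Pawr was equivalent within 1.5-fold while its unadjusted interval lay above 0. Averaged over its 2 probe sets the difference was 0.02.

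Of 16 genes of amino acid and endoplasmic reticulum stress 10 were responders, 2 higher and 8 lower (3.84% and 4.57% of all genes), and 16 were equivalent, near the 97.6% of all genes above the dim level. Trib3, a pseudokinase induced by that stress, was at 664, 641 and 672 with PTH and 704, 703 and 753 with PTHrP, against 1118, 1281 and 1157. Here the PTHrP arrays were the higher ones, with no overlap, and the difference was -0.12 (adjusted p = 0.992, limma), or -0.05 averaged over its probe sets. Ddit3, the gene of the stress factor CHOP, had a response of -0.75 and a difference of -0.03 (-0.15 to 0.09). Of 16 circadian clock genes 5 were responders and of 19 genes of insulin and glucose handling 8 were (8.4% of all genes), and all members of both lists were equivalent, beside 97.6% of all genes above the dim level. Among the latter, Gfpt2, an enzyme of the hexosamine pathway, rose by 1.53 with a difference of -0.05 (-0.26 to 0.15).

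Over these lists, interferon genes left aside, the median difference lay between -0.03 and 0.06, beside 0.006 over all genes tested. Genes with the 3 PTH arrays wholly above or below the 3 PTHrP arrays, as in Plin5, Ccn2 and Trib3, were 1648 of 18193 (9.06%). PTH was higher in 951 of them (5.23%) and PTHrP in 697 (3.83%). They numbered 1 of 22 in the receptor list, 0 of 26 in the cAMP list, 0 of 23 in the thermogenic list and 4 of 27 in the fat and cholesterol list.

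**Figure D3:**
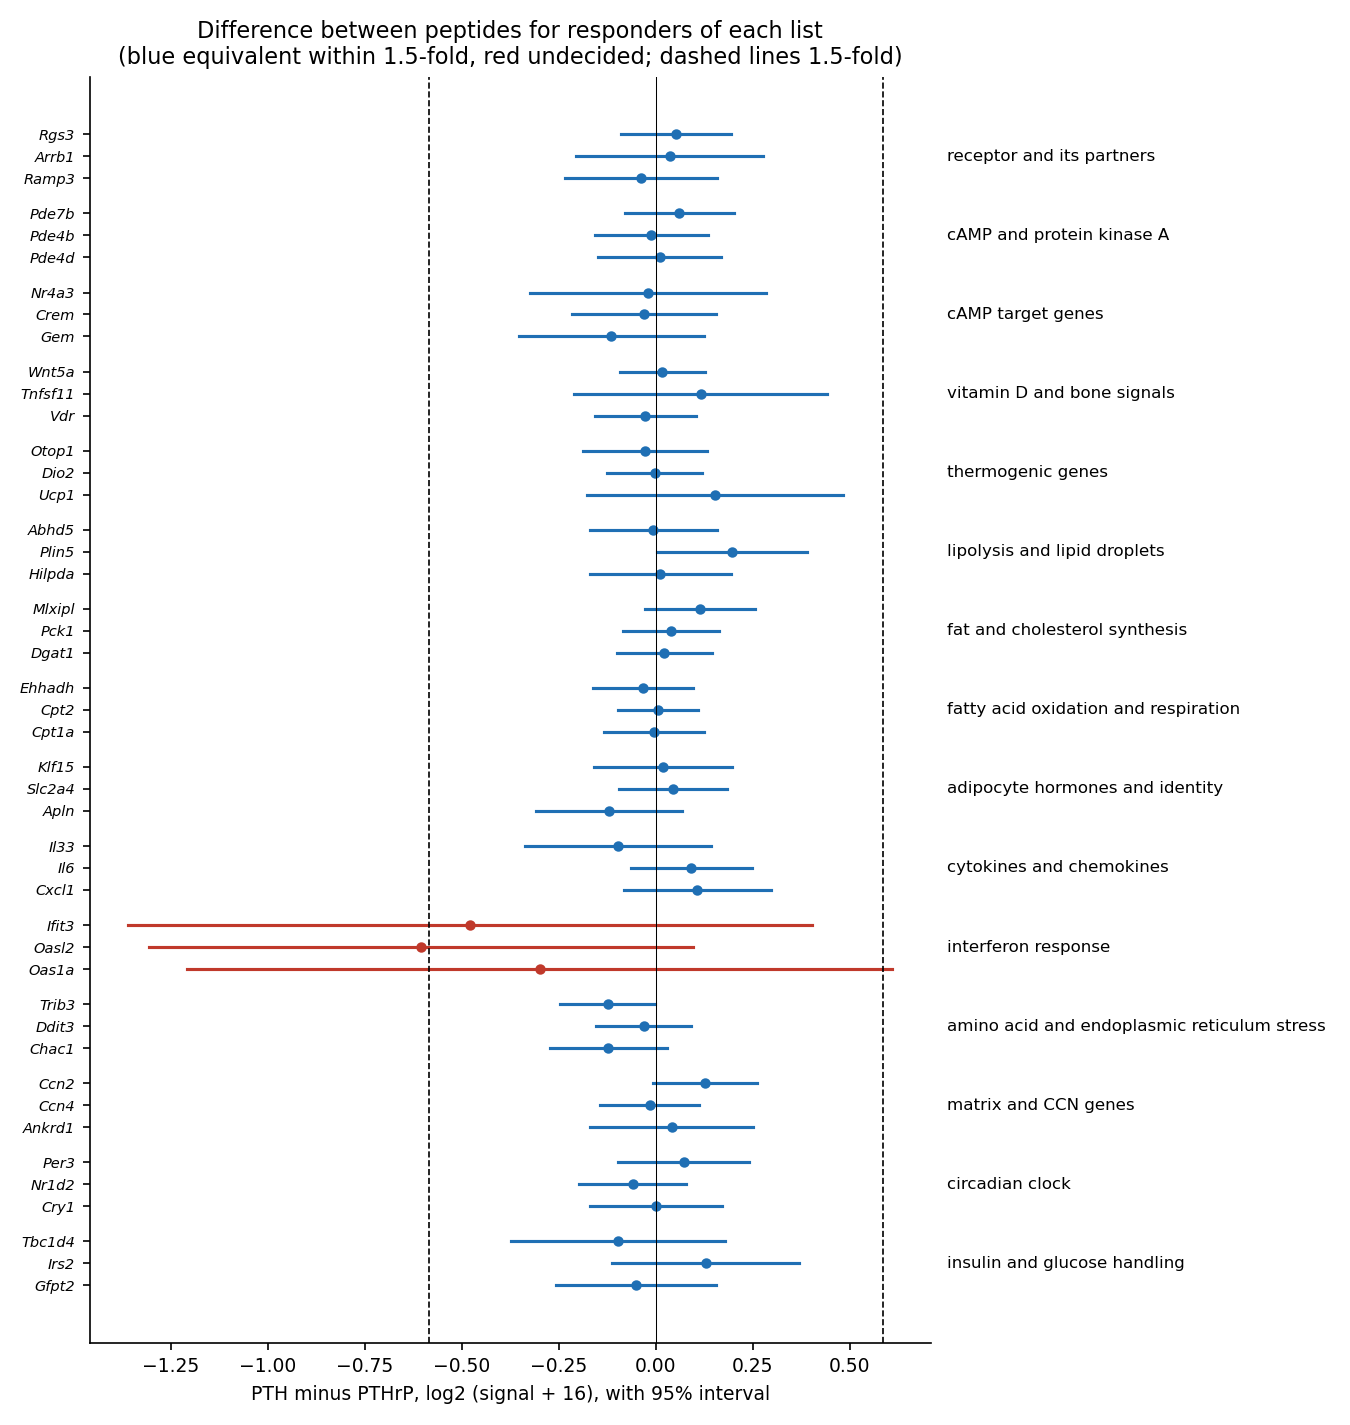
Log2 difference between PTH and PTHrP with its unadjusted 95% interval for the 3 responders with the largest response in each pathway list, blue where equivalent and red where undecided; dashed lines mark 1.5-fold. Intervals of the blue genes lie inside the lines, and those of Ifit3, Oasl2 and Oas1a reach beyond them.

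**Figure D4:**
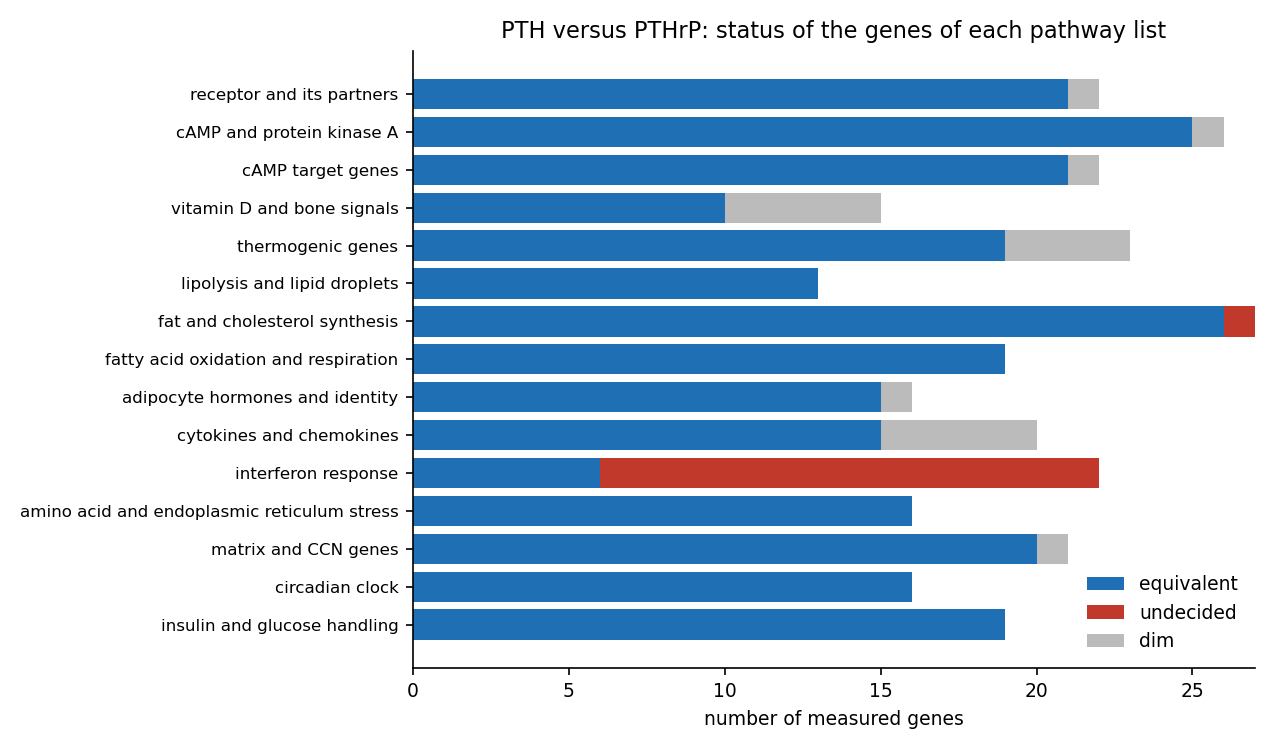
Number of measured genes of each of the 15 pathway lists that were equivalent, undecided or dim. The interferon list holds 16 of the 17 undecided genes in these lists, and Acacb is the other.

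A second margin, scaled to each gene, asked whether the difference was below 50% of the gene's own response (limma over all 9 arrays, adjusted p below 0.05). This margin is narrower than 1.5-fold for responses below 1.17 on the log2 scale and wider above. It was met by 21 responders, 16 that rose and 5 that fell, of which 10 had a response below 1.17 and 11, Ucp1 and Vdr among them, above. Ucp1 (adjusted p = 0.00214), Vdr (0.0059), Smim3 (0.0101) and the lipid transfer protein gene Pitpnc1 (0.0195) led them. The others that rose held Il6, Gfpt2, Tmem100, the hyaluronan synthase gene Has2, the prostaglandin F receptor gene Ptgfr and the thrombomodulin gene Thbd. Those that fell were Pawr, Fzd5, Gpr176, Fhl2 and Rgs3. The count was 1 or 2 without any 1 of the 6 treated arrays, and 12, 7 and 4 without control replicates 1, 2 and 3. A margin of 25% of the response was met by 0 genes.

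Among the pathway lists, only that of the interferon response genes stayed mostly undecided, with 16 of the 309 undecided genes. Interferon response genes are switched on when interferon reaches a cell and act against viruses. Of 22 measured (25 listed) 6 were equivalent and 16 undecided, against 2.41% undecided among all genes above the dim level. Of the 22, 18 were responders, all lower (4.57% of all genes), with 5 equivalent and 13 undecided. The responders among them numbered 2 without control replicate 2 or control replicate 3, and 21 without control replicate 1. They numbered 9, 11 and 8 without PTH replicates 1, 2 and 3, and 13, 10 and 20 without PTHrP replicates 1, 2 and 3. The median difference was -0.30, PTH being the lower by estimate in 22 of 22, while the median over all genes tested was 0.006. Without PTHrP replicate 3 the median difference was -0.03 and PTH was the lower in 14 of 22, and without PTHrP replicate 1 the median was -0.52.

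Ifit3, an antiviral protein that interferon induces, fell most of the undecided responders. It was at 733, 720.5 and 589 in the 3 PTH arrays and at 613, 826 and 1690.4 in the 3 PTHrP arrays, against 1401, 3208 and 3006 in controls. PTHrP replicate 1 lay among the PTH arrays and PTHrP replicate 3 lay above control replicate 1. The difference of -0.48 had an interval of -1.36 to 0.40, which holds both no difference and a difference of 2.57-fold. Oasl2, of the oligoadenylate synthase family of virus sensors, was at 222, 239 and 174 with PTH and at 215, 335 and 486 with PTHrP, against 513, 796 and 857. The groups overlapped at PTHrP replicate 1, and the difference was -0.61 (-1.31 to 0.10), the largest among the undecided responders. Oas1a, another member of that family, was at 108, 128 and 136 and 92.4, 135 and 292, with a difference of -0.30 (-1.21 to 0.61).

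The same array was the high one in every gene of the list. PTHrP replicate 3 was the highest of the 6 treated arrays in 22 of 22 interferon genes and in 31 of the 32 undecided responders, whereas it was the highest in 17% of all genes above the dim level. For the other arrays that share was 13.1% for PTH replicate 1, 19.7% for PTH replicate 2, 14.6% for PTH replicate 3, 16% for PTHrP replicate 1 and 19.6% for PTHrP replicate 2. PTHrP replicate 3 was also the highest in 136 of the 277 undecided genes that were no responders. Undecided genes are selected by their spread over these same 6 arrays. Their share at an outlying array, and their calls without it, are therefore partly set by the selection. The summed signal of the 22 genes was 10288, 10626 and 9507 with PTH, 9182, 11650 and 18804 with PTHrP, and 17712, 30219 and 27672 in controls. PTHrP replicate 3 thus lay above control replicate 1, while the other 5 treated arrays lay between 9182 and 11650, below every control. Without PTHrP replicate 3, 29 of the 32 undecided responders were equivalent, with a median difference of -0.05, and so were 21 of the 22 interferon genes. Oasl2 (equivalence adjusted p = 0.158, limma), Plcg2 and Lmod1 stayed undecided. Why that array stood apart was not tested.

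The undecided count also rested on the arrays that made these genes responders. Of the genes that are responders without a given array, 14 were undecided without PTH replicate 3, and 4 without PTHrP replicate 3, control replicate 2 or control replicate 3, against 32 with all arrays. Of the 32 themselves, 4 remained responders without control replicate 2 and 4 without control replicate 3. For the responders of at least 1.5-fold the undecided numbered 30 with all arrays, 12 without PTH replicate 3, and 3 without PTHrP replicate 3, control replicate 2 or control replicate 3.

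**Figure D5:**
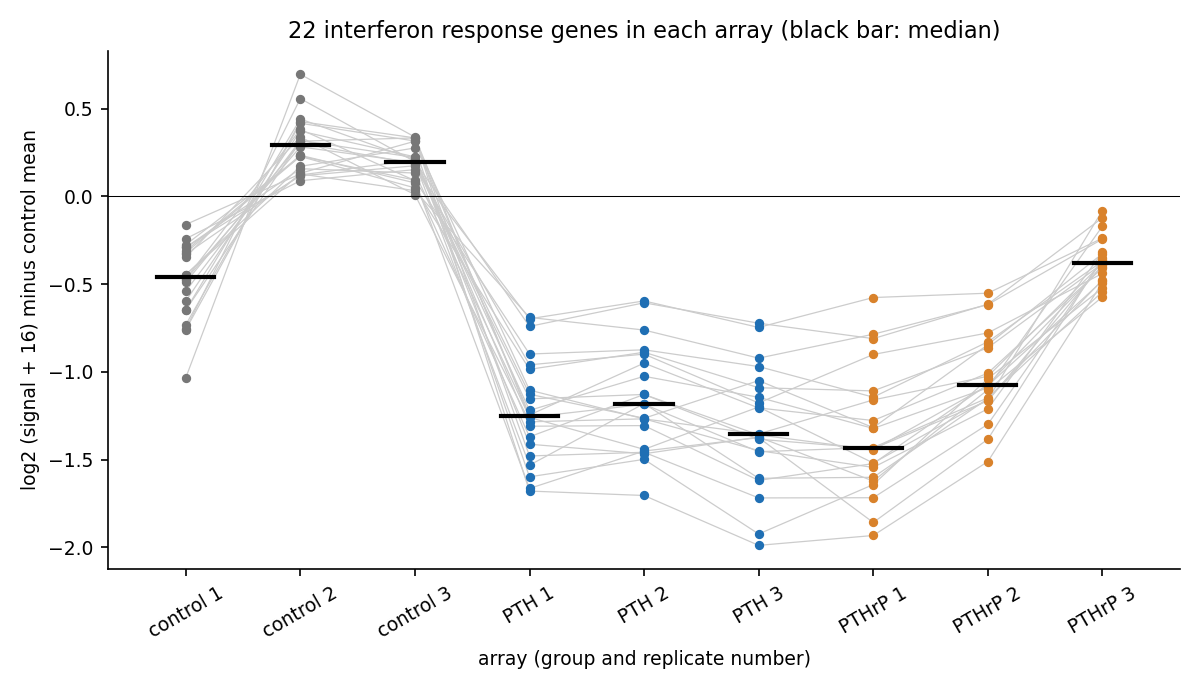
Log2 signal of the 22 measured interferon genes in each array minus the mean of the controls; points are genes, lines join the values of 1 gene and black bars are medians. The median of PTHrP replicate 3 is -0.38, above that of control replicate 1 at -0.46, and those of the other treated arrays lie between -1.43 and -1.08.

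Besides the 13 responders on the list, the undecided responders held further genes of the same kind, among them Rtp4, Ifi47, Phf11d, Rnf213, Iigp1, Irgm1, Irgm2, Gbp7, Parp14, Slfn8 and Trim34a. On the list, Usp18, which removes the ubiquitin-like ISG15 and dampens interferon signalling, was at 366, 372 and 308 with PTH and 308, 417 and 811 with PTHrP, against 664, 1308 and 1325 in controls. Irgm2, a GTPase of cell-intrinsic immunity with 1 of the narrowest intervals, had a difference of -0.27 (-0.70 to 0.16). At the edge of the margin, Ifih1 (equivalence adjusted p = 0.0450), Tor3a (0.0455), Stat2 (0.0477) and Ifi207 (0.0490) lay just inside, and Parp14 (0.0530), Lmod1 (0.0548), Irgm2 (0.0628) and Slfn8 (0.0726) just outside. Stat2, a subunit of the interferon-activated complex, was at 167, 175 and 141 with PTH and 174, 191 and 246 with PTHrP, so the line between its call and that of Parp14 is thin.

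The promoters of these genes are shown because PTHrP replicate 3 was the highest treated array in 31 of the 32 undecided responders. That pattern is partly set by the selection, since undecided genes were picked by their spread over the same arrays. In RefSeq promoters (build GRCm38.p6, 250 bases before to 50 after each gene's start), the core letters of the interferon-stimulated response element were searched on both strands, namely GAAA, any 2 bases and GAAA again. They stood in 13 of the 24 undecided responders with a promoter in the table (54.2%). They stood in 11 of 66 equivalent responders of at least 1.5-fold that fell (16.7%) and in 5 of 76 that rose (6.58%). They stood in 368 of 10313 genes above the dim level (3.57%), and in 1079 of all 27025 promoters (3.99%). Among undecided genes that were no responders they stood in 16 of 199 (8.04%). The 11 falling equivalent genes were Ddx58, Eif2ak2, Gbp2, Ifi207, Ifih1, Lurap1l, Slfn5, Stat2, Trim12a, Trim12c and Trim21. Of these, Ifi207, Ifih1 and Stat2 lay just inside the margin. The shares of 54.2% and 16.7% therefore do not set separate kinds of gene apart. The letters TGACGTCA, the full cAMP response element, which is the same on both strands and shares no bases with the other motif in the windows below, stood in 2 of the 76 rising genes (2.63%, Dio2 and Has1), in 2 of the 66 falling ones (3.03%, Lmcd1 and Mlf1) and in 0 of the 24. They stood in 3.36% of the genes above the dim level and 2.03% of all promoters, so the share of the rising genes lay near both. A match is a description of the letters only. The windows below are given along the gene's strand, 5′ to 3′, with each match in capitals (2 in Ifit1, and 2 that overlap in Oas1a): Ifit3 at chr19:34583382-34583441 (plus strand) and Ifit1 at chr19:34640779-34640838 (plus strand) as its reverse complement, and Oas1a at chr5:120907526-120907564 (minus strand), Irgm2 at chr11:58214888-58214947 (plus strand) and, for the cAMP response element, Dio2 at chr12:90739101-90739158 (minus strand) in the forward direction.
Ifit3: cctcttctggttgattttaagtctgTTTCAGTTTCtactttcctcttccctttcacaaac
Ifit1: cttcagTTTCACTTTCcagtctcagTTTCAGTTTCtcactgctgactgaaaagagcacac
Oas1a: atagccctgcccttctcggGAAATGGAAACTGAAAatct
Irgm2: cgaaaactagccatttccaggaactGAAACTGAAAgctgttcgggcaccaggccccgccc
Dio2: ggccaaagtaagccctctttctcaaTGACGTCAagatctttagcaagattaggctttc

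Lmod1, Plcg2, Sox18 and Myct1, also undecided responders, are known chiefly for other roles. Lmod1, an actin-binding protein of smooth muscle, was at 60.4, 75.8 and 80.3 with PTH and 44.2, 75.4 and 55.7 with PTHrP, against 142, 162 and 154 in controls, and was the only undecided responder with PTH the higher by estimate (0.26, -0.16 to 0.67). The 6 measured smooth muscle and pericyte markers were equivalent. Plcg2, a phospholipase of immune cell signalling, was at 39.6, 39.7 and 21.5 and 23.3, 62.7 and 64.8, with PTH replicate 3 and PTHrP replicate 1 both low.

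Sox18 and Myct1, both known from endothelial cells, had the PTH arrays below the PTHrP arrays. Myct1 was at 70.2, 53.8 and 56.7 with PTH and 79.9, 82.0 and 101 with PTHrP, against 105, 109.6 and 118 in controls. Sox18 was at 36.0, 32.1 and 44.8 with PTH and 46.2, 51.5 and 66.5 with PTHrP, against 65.6, 65.0 and 64.6. The groups did not overlap in either gene, as in 9.06% of all genes, and the differences were -0.44 (-0.72 to -0.17, adjusted p = 0.991, limma) and -0.40 (-0.72 to -0.07, adjusted p = 0.992). Without PTHrP replicate 3 both were equivalent, at -0.35 and -0.28. Of the 6 endothelial markers 3 were equivalent and 3 dim (Pecam1, Vwf and Tie1), and their summed signal was 200.1 to 243 with PTH, 209.6 to 285 with PTHrP and 272 to 306 in controls. The part of endothelial cells in these differences was not tested. Of the 8 macrophage markers 5 were equivalent and 3 dim (Mrc1, Itgam and C1qa), with a summed signal of 1101 to 1252 with PTH, 1089 to 1219 with PTHrP and 1033 to 1143 in controls.

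The genes with the smallest p between peptides were all dim. Cyp2c50, a cytochrome P450, came first, at 9.96, 9.84 and 9.69 with PTH and 20.6, 19.6 and 22.0 with PTHrP, against 23.0, 21.1 and 18.9 in controls. The groups were far apart for their spread, with a difference of -0.51 (-0.62 to -0.40, unadjusted p = 3.1e-05), but its adjusted p was 0.564 (limma) and every signal lay below the dim level of 28.9. The other 9 were Olfr480, Cabcoco1, H2-Ob, Spata18, Fancd2os, Slc6a16, Il10ra, Rfx2 and Rnf186, each with an adjusted p of 0.791. PTH was the higher in Cabcoco1, H2-Ob, Rfx2 and Rnf186, and PTHrP in the remaining 5. Rfx2, a transcription factor of cilia genes, was at 16.6, 23.5 and 13.0 with PTH, 3.82, 5.02 and 4.00 with PTHrP and 34.9, 2.68 and 34.3 in controls, so its controls spanned both treated groups.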

How the data were processed

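RNA of 9 samples (3 control, 3 PTH, 3 PTHrP) was labelled as biotin-cRNA and read on Affymetrix mouse arrays, per the labels. The values are the deposited intensities of 45101 probe sets. The sources used here do not give how the authors summarised, background-corrected and scaled them, and that they are linear was taken from their range. Of these, 64 were array controls, 34945 had 1 gene symbol, 932 several and 9160 none in the platform table. The 18193 genes were taken at their brightest probe set by the mean over all 9 arrays, controls included (9010 had several). Groups came from the sample titles, and 3 arrays a group limit the precision of every value.

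Values were log2(intensity + 16), fitted with limma 3.58.1 (statmod 1.5.0) in R 4.3.3, with Benjamini-Hochberg adjustment across the genes and a threshold of 0.05. PTH and PTHrP were compared on the 6 treated arrays, by a two-sided test and by 2 one-sided tests against 1.5-fold; responders and the margin of 50% of the response used all 9 arrays. Intervals of 95% are not adjusted for the number of genes. Single array values were compared by exact permutation. Python 3.11.15 with matplotlib 3.10.9 made the figures. The steps were tested on simulated data.

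The members and the gene lists were chosen with earlier results of these data known. The rule named the 10 smallest p, the 10 largest rises and falls among responders, the 5 undecided responders with the widest and with the narrowest interval, the 3 largest responders of each list and 14 fixed genes, passing over clone and model names. All other genes were named after their values were seen. Alternatives were other normalization, centring, dim filter, probe set rule, variance model, array weights, replicate block, pseudocounts of 1 and 64, thresholds, margins, all 9 arrays in the fit, and leaving out each array. No scan batch was fitted, as the sources used here give no scan dates.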

Additional observations from a re-analysis of the deposited data

How the results depend on the processing

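No gene differed between PTH and PTHrP under any of the 20 alternatives run, which included leaving out each treated array. The stricter threshold and Holm's adjustment could give no other result once no gene passed the main threshold. With 1 array left out, fewer arrays remain to find a difference. It follows from these counts that the adjusted differences of the 80 named genes kept their side of the threshold in all 1347 alternative values. Of 54 named genes called equivalent, 53 kept the call in all 17 settings compared apart from Holm's adjustment, and Tox3 lost it with a pseudocount of 1. Outside these settings, 2 (Ucp1 and Tox3) lost it at an adjusted p below 0.01, and 8, Ucp1 and Tnfsf11 among them, with the margin narrowed to a 25% rise or the matching fall.

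The count of equivalent genes (12511) became 22528 with all probe sets tested singly, which tests more features, and 0 with Holm's adjustment. Undecided genes (309) numbered 1047 and 46 with pseudocounts of 1 and 64, and 179 with the mean of probe sets. They numbered 2390 with the margin narrowed to a 25% rise or the matching fall, 26 with a margin of 2-fold, and 301 to 555 with 1 treated array left out. Equivalent responders (1435) numbered 943 with the replicate block, 640 at an adjusted p below 0.01, 0 with Holm's adjustment, and 810 to 1344 with 1 array left out.

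Responders whose difference was below 50% of their response (21) were the least stable count. They numbered 58 with dim genes left out, 9 with all probe sets, 102 with a trended and robust variance, 34 with array weights, 3 with the replicate block, 6 and 66 with pseudocounts of 1 and 64, 2 at an adjusted p below 0.01, 0 at a margin of 25%, 3 with Holm's adjustment, and 1 to 12 with 1 array left out.

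Undecided responders (32) numbered 9 at an adjusted p below 0.01, 140 with the margin narrowed to a 25% rise or the matching fall, 4 with a margin of 2-fold, and 4 to 36 with 1 array left out. Among responders of at least 1.5-fold the undecided (30) numbered 9, 72, 4 and 3 to 35 in the same settings, and the equivalent ones (194) stayed between 134 and 247. The causes of these shifts, apart from the number of features tested and the margin itself, were not tested.

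Whether same-numbered PTH and PTHrP arrays are paired could not be decided. Over 12820 genes their deviations from the group means correlated at -0.116, 0.183 and -0.15, while PTH replicate 1 with PTHrP replicate 3 gave 0.315. Deviations from means of 3 arrays offset each other, so these values can neither show nor exclude pairing. With the replicate number as a block 0 genes differed, 12553 were equivalent and 35 responders were undecided. The equivalence values of single genes, Holm's adjustment and both undecided counts of responders were added after seeing the data. So were the counts of equivalent responders without a control array. All probe sets were not run for the counts of responders of at least 1.5-fold. With 3 arrays a group, signal below 28.9 limits what can be called for 5373 genes.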

Other observations

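Tmem130 had the largest estimated difference of all genes and was picked after its values were seen. It was at 5.83, 6.46 and 6.83 with PTH and at 17.8, 42.0 and 49.8 with PTHrP, against 2.14, 3.41 and 3.45 in controls. The groups did not overlap, the log2 difference was -1.18 (95% interval -1.77 to -0.58), and the adjusted p was 0.827 (limma). Its mean over the treated arrays, 21.4, is below the dim level.

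Myog, the muscle transcription factor gene myogenin, had a difference of 0.68 (-0.04 to 1.40) and was undecided, with signals of 36.4, 43.4 and 34.6 with PTH and 15.9, 36.5 and 6.74 with PTHrP. Of the other skeletal muscle markers 2 were equivalent and Myod1, Myh4 and Tnnt3 were dim.

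Among the 10092 probe sets with no symbol or several, fitted apart, 0 differed between the peptides by limma at an adjusted p below 0.05 (482 at an unadjusted p below 0.05). Of them 3712 were equivalent, 219 undecided and 6161 dim, and the 19 responders among them were all equivalent.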
